A study of Mus musculus with 8 samples.

Results

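The p53 pathway was followed in the atria of mice in which Chd4 was targeted after birth. It was read through 38 genes that encode p53, its regulators and its known direct targets. The genes were chosen by symbol from the pathway's biology, with earlier results of these data known. Each of the 38 symbols stood on 1 row of a table of 54532 genes. A filter on low counts kept 37 of them, against 18033 genes in all, and only Cdkn2a fell below it. Bulk RNA sequencing covered 8 libraries of polyadenylated RNA from atria (labelled Right/Left atria, cell type Mixed). The 4 KO libraries came from Chd4flox/flox mice injected on postnatal day 2 with AAV9:Nppa-Cre, and the 4 control libraries from Chd4flox/flox mice injected on the same day with AAV9:Nppa-EGFP. All 8 libraries therefore shared the floxed alleles and an AAV9 vector, while Cre was given in KO and EGFP in control. Effects of Cre itself or of EGFP on the p53 pathway and those of losing Chd4 cannot be told apart. Nppa is a natriuretic peptide gene of atrial cardiomyocytes, so the vector's promoter is expected to act in those cells, while the RNA came from every cell of the atrium. The sources used here give neither the age at collection nor the number of mice behind a library, and each p-value below reflects library-to-library spread, which may be technical.

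The transcription factor p53, encoded by Trp53 in the mouse, is held low by the ubiquitin ligase Mdm2 and its relative Mdm4. DNA damage and other stresses free p53 from this hold, mostly at the level of the protein rather than its messenger RNA. It then raises the transcription of genes that halt the cell cycle, repair DNA, change metabolism or start apoptosis, and of Mdm2, which closes a feedback loop. Cardiomyocytes largely stop dividing soon after birth, and in the heart the pathway is known mainly from cell death and cell cycle exit. Chd4, the targeted gene, encodes a chromatin remodelling ATPase, the motor of NuRD, a complex that also removes acetyl groups from histones.

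p53 binds a pair of adjoining decamers, each with a C and a G at its core. Promoter windows of 300 bases (250 before the start of transcription and 50 after it, RefSeq, build GRCm38.p6) were searched for the p53 decamer, which reads the same on both strands. Windows were on hand for 29 of the 38 genes, and 12 of these 29 (41.4%) held at least 1 exact decamer, against 2582 of 27025 genes with a window (9.55%). A pair of decamers with no spacer and at most 1 mismatch lay in the windows of 3 of the 29 genes, Ccng1, Cdkn1a and Rps27l, against 22 of all 27025 (0.0814%). The genes were listed as known p53 targets, so the difference in shares is a description of the list. Windows for Ptp4a3, Xpc, Rrm2b, Tnfrsf10b, Ddb2, Perp, Pmaip1, Trp53inp1 and Zmat3 were not used here. The 3 windows with a paired match are shown with those of Mdm2 and Bax, 2 targets picked for display whose windows hold a single decamer. Whether p53 binds any of these matches was not tested, and sites outside the 300 bases were not searched. Decamers and paired matches are in capitals, and each window runs 5′ to 3′ along its gene.
Ccng1 chr11:40755237-40755536 minus strand: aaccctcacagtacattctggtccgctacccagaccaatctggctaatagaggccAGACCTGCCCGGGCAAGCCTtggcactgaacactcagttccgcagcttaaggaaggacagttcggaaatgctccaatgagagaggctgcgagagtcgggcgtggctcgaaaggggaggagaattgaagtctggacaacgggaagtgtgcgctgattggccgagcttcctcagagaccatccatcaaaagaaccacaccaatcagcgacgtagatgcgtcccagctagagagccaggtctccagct
Cdkn1a chr17:29090729-29091028 plus strand: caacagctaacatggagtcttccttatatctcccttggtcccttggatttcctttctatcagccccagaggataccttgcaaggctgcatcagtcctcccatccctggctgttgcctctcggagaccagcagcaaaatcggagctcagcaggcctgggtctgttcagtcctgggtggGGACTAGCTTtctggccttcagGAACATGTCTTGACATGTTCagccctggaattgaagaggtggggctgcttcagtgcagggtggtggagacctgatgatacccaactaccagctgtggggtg
Rps27l chr9:66946163-66946462 plus strand: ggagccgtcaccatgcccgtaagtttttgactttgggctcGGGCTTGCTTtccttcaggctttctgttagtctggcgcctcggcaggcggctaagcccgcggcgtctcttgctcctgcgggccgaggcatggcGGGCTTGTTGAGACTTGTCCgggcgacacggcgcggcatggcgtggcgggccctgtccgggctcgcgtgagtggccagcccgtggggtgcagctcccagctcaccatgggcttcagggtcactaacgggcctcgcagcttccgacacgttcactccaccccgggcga
Mdm2 chr10:117710709-117711008 minus strand: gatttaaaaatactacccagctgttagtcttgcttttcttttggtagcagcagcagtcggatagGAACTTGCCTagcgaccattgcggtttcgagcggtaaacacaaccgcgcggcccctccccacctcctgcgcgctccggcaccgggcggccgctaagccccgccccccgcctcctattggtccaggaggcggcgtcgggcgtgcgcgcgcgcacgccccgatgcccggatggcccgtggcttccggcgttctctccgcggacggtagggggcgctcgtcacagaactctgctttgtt
Bax chr7:45466849-45467148 minus strand: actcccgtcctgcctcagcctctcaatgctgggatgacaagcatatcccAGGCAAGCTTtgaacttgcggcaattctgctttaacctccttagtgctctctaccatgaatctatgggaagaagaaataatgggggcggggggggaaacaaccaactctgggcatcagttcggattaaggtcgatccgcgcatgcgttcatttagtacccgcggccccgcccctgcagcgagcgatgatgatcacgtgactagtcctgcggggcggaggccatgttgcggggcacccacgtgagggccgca
The paired match began at position -195 from the start of transcription of the window shown in Ccng1, at -51 in Cdkn1a and at -117 in Rps27l. Cdkn1a and Rps27l each had another window, at a different start (chr17:29093519-29093818 and chr9:66945836-66946135). Those windows held no decamer and no paired match, and a gene was counted if any of its windows held a match. Of these 5 genes all but Rps27l were higher in KO by the test described below, as were 14.8% of all tested genes. Mdm2 and Bax were picked for display, so this count does not bear on a link between a decamer and a change in KO. Among the genes with a window, 6 of 12 that were higher in KO held a decamer, 1 of 2 that were lower (Gadd45a) and 5 of 14 that were not called.

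Total counts were 34002292 to 38228982 in KO libraries and 39804625 to 40588007 in control libraries, of which the 38 genes took 75108 to 88708 reads in KO and 72629 to 76508 in control. Levels are given as CPM, the usual depth-scaled count with TMM factors applied, and a count of 3, the floor for a library with none, came to 0.0744 to 0.0885 CPM and covers counting error only. Chd4 itself, the target of Cre (ENSMUSG00000063870), lies on chromosome 6 from 125095981 to 125130591 in GRCm38, the build of all gene positions given here. It held 169, 185, 187 and 199.6 CPM in KO 1 to 4, against 278, 297, 284 and 308 CPM in control 1 to 4, a fall by 0.66 on the log2 scale by edgeR (SE 0.06, adjusted p = 1.86e-05). KO 2 and control 2 stood apart from the rest on the second principal component, at -21.4 and -30.4, with the other libraries at 1.29 to 14.5. Summed Y-linked expression was low in KO 2 (1.64 CPM) and in controls 1 and 2 (1.61 and 1.79 CPM) and at 212 to 256 CPM in the other libraries. Library names carried prefixes that KO and control did not share, so a difference between prefixes cannot be told apart from that between the groups. Cardiomyocyte RNA was abundant in every library, and no ventricular markers were read to check the atrial label. The 10 cardiomyocyte markers summed to 57320 to 71730 CPM in KO atria and 87980 to 96430 CPM in control atria, and none of the cell type markers measured was at 0 in any library.

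More of the p53 pathway genes were higher in KO atria than lower. By edgeR's quasi-likelihood test, with Benjamini-Hochberg adjustment over all 18033 tested genes and a threshold of 0.05, 17 of the 37 tested genes (45.9%) were higher in KO, 3 (8.11%) were lower and 17 were not called. In either direction that made 20 of 37 (54.1%), against 27.9% of all tested genes. Over all tested genes, 2677 (14.8%) were higher and 2355 (13.1%) were lower. The largest increases were those of Phlda3, Psrc1, Eda2r, Plk2 and Pmaip1, which rose 2.19-fold to 2.99-fold. Perp fell 2.55-fold, Tigar 1.54-fold and Gadd45a 1.30-fold. The median log2 fold change of the 37 genes was 0.26, beside 0.01 over all tested genes, and the values ran from -1.35 to 1.58. Changes of at least 1.5-fold were called higher for 8 genes (21.6%, against 7.29% of all tested genes) and lower for 2 (5.41%, against 4.35%). The 4 KO and 4 control libraries did not overlap for 15 of the 37 genes in the higher direction (15.3% of all tested genes) and for 3 in the lower direction (13.9% of all tested genes). With libraries scaled by their totals alone, 19 of the 37 were higher and 2 lower, beside 3696 and 1580 of all tested genes, a share of 70.1% higher among all calls in place of 53.2%.

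**Figure D1:**
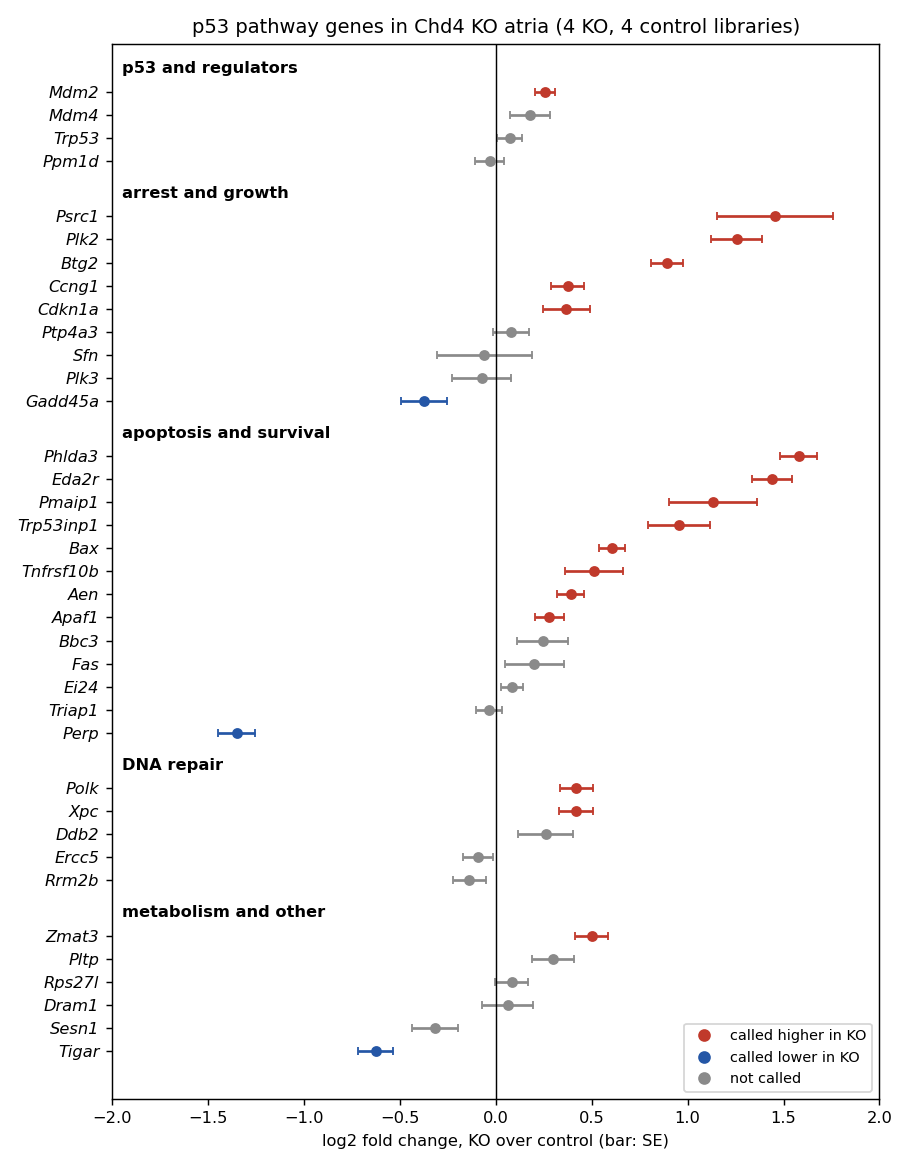
Log2 fold change of KO over control (horizontal axis) for the 37 tested p53 pathway genes, grouped by role and ordered by size, with bars for the SE of the edgeR fit (4 libraries in each group). Of the 37 genes, 17 lay in the called higher class and 3 in the called lower class, and Perp, at -1.35, lay opposite to Phlda3, at 1.58.

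Among the 4 tested genes of p53 and its regulators, edgeR called only Mdm2. Trp53 itself (ENSMUSG00000059552, chromosome 11, 69580359 to 69591873) was at 33.6, 31.0, 28.3 and 29.8 CPM in KO, against 28.5, 28.8, 29.7 and 29.6 CPM in control atria. The groups overlapped, and the log2 fold change came to 0.07 by edgeR (SE 0.07, adjusted p = 0.439). Mdm2 (ENSMUSG00000020184, chromosome 10, 117688875 to 117710758), the ligase that marks p53 for breakdown and a p53 target in its own right, held 107, 102, 110.2 and 107 CPM in KO, against 88.4, 87.4, 89.2 and 91.4 CPM in control atria. Every KO library lay above every control library, and Mdm2 rose 1.20-fold (log2 fold change 0.26, SE 0.05, edgeR adjusted p = 0.00249). Mdm4 (ENSMUSG00000054387, chromosome 1, 132959484 to 133030561), a relative of Mdm2 that binds p53 and blocks its activity, was at 96.7, 111, 120.5 and 122 CPM in KO, against 101, 114, 80.8 and 103 CPM in control atria. Those ranges overlapped (log2 fold change 0.18, SE 0.10, adjusted p = 0.233). Ppm1d, a phosphatase that dampens p53 signalling, averaged 14.2 ± 0.636 CPM in KO atria and 14.5 ± 0.54 CPM in control atria (SD, n = 4 each, adjusted p = 0.794).

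Cdkn2a (ENSMUSG00000044303, chromosome 4, 89274471 to 89294653), whose locus encodes p16 and the Mdm2 inhibitor p19Arf in the mouse, was barely detected and was not tested. Its reads numbered 22 in the KO libraries together and 6 in the controls together, or 0.059, 0.0248, 0.163 and 0.352 CPM in KO atria and 0.052, 0.0252, 0.051 and 0.0255 CPM in control atria. KO 4 held 13 of the 22 KO reads. The counts cover the whole gene and do not separate its transcripts.

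Of 9 genes of cell cycle arrest and growth control, 5 were higher (55.6%, against 14.8% of all tested genes), 1 was lower (11.1%, against 13.1%) and 3 were not called. Cdkn1a (ENSMUSG00000023067, chromosome 17, 29090976 to 29100727), which encodes p21, the cyclin-dependent kinase inhibitor through which p53 halts the cycle, held 78.1, 107, 117 and 111 CPM in KO, against 90.1, 71.7, 75.1 and 83.8 CPM in control atria. Here KO 1 lay inside the control range while the other 3 KO libraries lay above it. The gene was called with a small margin, at 1.29-fold (log2 fold change 0.37, SE 0.12, edgeR adjusted p = 0.0471). Leaving out KO 2, KO 3, KO 4, control 2, control 3 or control 4 singly ended that call (adjusted p = 0.0808 to 0.119). Of all 20 alternatives 13 did not call Cdkn1a, among them the fit without a filter on low counts (0.116). The adjusted p ran from 0.00116 to 0.223 over the alternatives. Some exons of Cdkn1a overlap those of AC167363.2 on the opposite strand, and the strand setting of the counting was not given in the sources used here.

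Ccng1 (ENSMUSG00000020326, chromosome 11, 40748552 to 40755311), cyclin G1, a p53 target that feeds back on Mdm2, held 675, 664, 666 and 652 CPM in KO, against 524, 436, 601 and 487 CPM in control atria. The KO libraries lay within a narrow band above all controls, with a 1.30-fold rise (log2 fold change 0.38, SE 0.09, edgeR adjusted p = 0.00668). Against controls 3 and 4 alone the log2 fold change was 0.26 (adjusted p = 0.069, with 0.000198 to 0.069 over all alternatives).

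Btg2 (ENSMUSG00000020423, chromosome 1, 134075170 to 134079120), an antiproliferative cofactor of messenger RNA deadenylation, was at 86.1, 76.4, 70.6 and 72.0 CPM in KO, against 41.5, 46.2, 40.1 and 36.6 CPM in control atria. It rose 1.86-fold with no overlap (log2 fold change 0.89, SE 0.08, edgeR adjusted p = 1.33e-05). Plk2 (ENSMUSG00000021701, chromosome 13, 110395046 to 110400844), a polo-like kinase first known as a serum-inducible kinase, was at 83.3, 66.1, 75.6 and 92.8 CPM in KO, against 35.4, 40.4, 29.6 and 27.7 CPM in control atria. It rose 2.39-fold (log2 fold change 1.26, SE 0.13, adjusted p = 0.000107), and the groups were again separate. Its relative Plk3 averaged 4.44 ± 0.845 CPM in KO atria and 4.67 ± 0.401 CPM in control atria (SD, n = 4 each, adjusted p = 0.763).

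Psrc1 (ENSMUSG00000068744, chromosome 3, 108383839 to 108388231), a microtubule-binding protein of the mitotic spindle, held 2.36, 4.07, 3.73 and 3.93 CPM in KO, against 1.20, 0.63, 1.33 and 1.99 CPM in control atria. KO 1 was the lowest KO library and stayed above control 4, the highest control (2.74-fold, log2 fold change 1.45, SE 0.30, edgeR adjusted p = 0.00398). Gadd45a, a growth arrest and DNA damage gene, went the other way, at 5.34 ± 0.514 CPM in KO atria and 6.92 ± 0.651 CPM in control atria (SD, n = 4 each, log2 fold change -0.37, SE 0.12, adjusted p = 0.0364). Leaving out KO 1, KO 3, KO 4, control 1, control 2 or control 3 singly ended that call (0.0571 to 0.0944). Of all 20 alternatives 13 did not call Gadd45a (0.0124 to 0.12 over all of them). Its exons overlap E230016M11Rik on the opposite strand. Sfn, encoding 14-3-3 sigma, averaged 1.44 ± 0.471 CPM in KO atria and 1.5 ± 0.237 CPM in control atria (SD, n = 4 each, adjusted p = 0.885), and Ptp4a3, a phosphatase, 199.6 ± 21.7 CPM in KO atria and 189 ± 21.5 CPM in control atria (SD, n = 4 each, adjusted p = 0.577).

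The apoptosis and survival genes held the largest rise and the largest fall of the set. Of 13 genes, 8 were higher (61.5%, against 14.8% of all tested genes), 1 was lower (7.69%, against 13.1%) and 4 were not called. Phlda3 (ENSMUSG00000041801, chromosome 1, 135766119 to 135769136), a PH-domain protein that restrains Akt survival signalling, held 96.5, 85.9, 101 and 95.9 CPM in KO, against 29.9, 26.7, 37.6 and 32.7 CPM in control atria. Its 4 KO libraries all exceeded the highest control by more than the spread within either group, with a 2.99-fold rise (log2 fold change 1.58, SE 0.10, edgeR adjusted p = 6.94e-07). Eda2r (ENSMUSG00000034457, chromosome X, 97333840 to 97377216), a receptor of the TNF receptor family that binds ectodysplasin A2, was at 15.2, 16.3, 18.0 and 17.8 CPM in KO, against 5.77, 5.62, 7.20 and 6.24 CPM in control atria. It rose 2.71-fold (log2 fold change 1.44, SE 0.10, adjusted p = 1.98e-06), and its groups were as clearly separate.

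Pmaip1 (ENSMUSG00000024521, chromosome 18, 66458533 to 66465565) encodes Noxa, a BH3-only protein that opposes Mcl1. Its low level was 1.65, 2.85, 2.21 and 2.41 CPM in KO, against 0.806, 1.06, 1.33 and 0.968 CPM in control atria, and it rose 2.19-fold (log2 fold change 1.13, SE 0.23, edgeR adjusted p = 0.00348). Trp53inp1 (ENSMUSG00000028211, chromosome 4, 11156431 to 11174379), a nuclear protein that assists p53 and takes part in autophagy, was at 62.2, 73.6, 69.9 and 60.9 CPM in KO, against 28.7, 47.1, 33.8 and 27.8 CPM in control atria. Control 2 was the highest control, and all KO libraries lay above it (1.94-fold, log2 fold change 0.96, SE 0.16, adjusted p = 0.00219). Bax (ENSMUSG00000003873, chromosome 7, 45461697 to 45466898), the pore-forming effector of the mitochondrial death pathway, held 29.2, 25.3, 26.2 and 27.1 CPM in KO, against 17.8, 18.0, 17.0 and 18.2 CPM in control atria. It rose 1.52-fold with tight groups that did not overlap (log2 fold change 0.60, SE 0.07, adjusted p = 6.09e-05), and 192 of its exonic bases overlap the predicted gene Gm45808 on the same strand.

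Smaller increases were called for 3 further genes of this role. Aen, an exonuclease gene active in apoptosis, averaged 46.4 ± 1.25 CPM in KO atria and 35.3 ± 3.34 CPM in control atria (SD, n = 4 each, 1.31-fold, edgeR adjusted p = 0.0016). Apaf1, the scaffold of the apoptosome, averaged 24.2 ± 1.65 CPM in KO atria and 19.99 ± 1.24 CPM in control atria (SD, n = 4 each, 1.21-fold, adjusted p = 0.0166), which was not called once KO 4 (0.0536) or control 4 (0.0565) was removed, with 0.00509 to 0.123 over all alternatives. Tnfrsf10b, the mouse TRAIL receptor, averaged 6.91 ± 1.30 CPM in KO atria and 4.85 ± 0.506 CPM in control atria (SD, n = 4 each, 1.43-fold, adjusted p = 0.0263), with KO 1 inside the control range. The call ended when KO 2, KO 3, KO 4, control 1 or control 4 was left out singly (0.0535 to 0.0879, with 0.00405 to 0.125 over all alternatives).

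Perp (ENSMUSG00000019851, chromosome 10, 18845020 to 18857073) was the 1 gene of this role called lower. This tetraspan membrane protein is a p53 effector of apoptosis and also a component of desmosomes. Its level was 78.1, 64.9, 64.4 and 54.8 CPM in KO, against 161, 184, 159 and 164 CPM in control atria. Every KO library was under every control, a 2.55-fold fall (log2 fold change -1.35, SE 0.10, edgeR adjusted p = 2.16e-06). Not called were Bbc3, which encodes the BH3-only protein Puma (6.93 ± 1.14 CPM in KO atria and 5.84 ± 0.429 CPM in control atria, adjusted p = 0.197), and the death receptor gene Fas (13.3 ± 1.6 CPM in KO atria and 11.6 ± 2.69 CPM in control atria, adjusted p = 0.357; SD, n = 4 each for both). Fas was called without control 2, with an adjusted p of 0.0486 (0.0486 to 0.911 over all alternatives). The other two, Ei24 and Triap1, had log2 fold changes of 0.08 and -0.04 (adjusted p = 0.309 and 0.742), and Ei24 was called higher with libraries scaled by totals alone (0.0408, with 0.0408 to 0.96 over all alternatives).

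**Figure D2:**
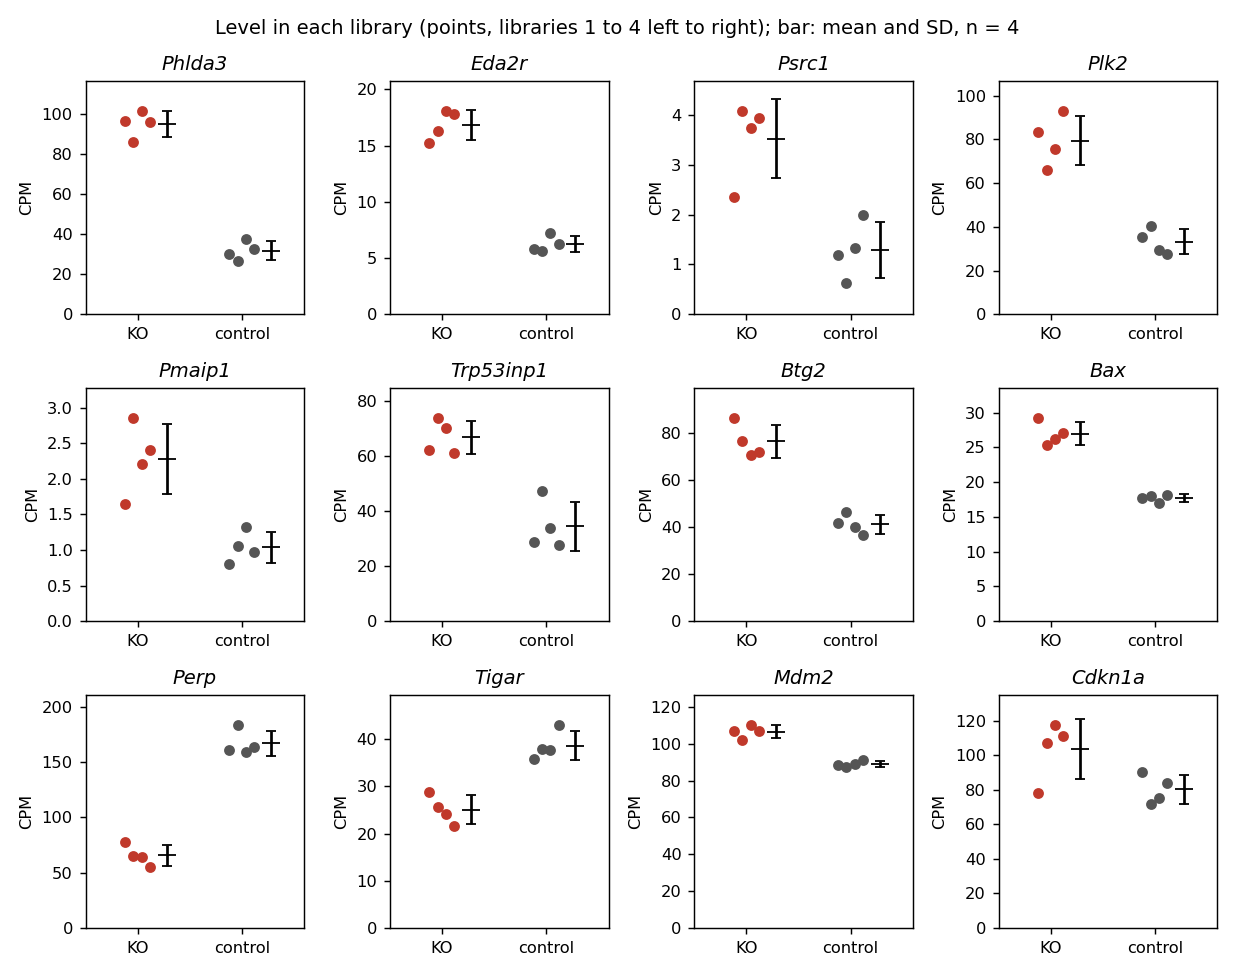
CPM (vertical axes, from 0) in each KO and control library for 12 genes of the pathway, with the mean and SD of 4 libraries beside the points. KO and control do not overlap in any panel but that of Cdkn1a, where KO 1 (78.1 CPM) lies among the controls (71.7 to 90.1 CPM). KO is the lower group for Perp and Tigar. The panels show the genes of the set called with at least a 1.5-fold change, with Mdm2 and Cdkn1a, so their separation follows largely from that choice. Groups did not overlap for 18 of the 37 tested genes of the set, against 29.2% of all tested genes.

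Of 5 genes of DNA repair and nucleotide supply, 2 were higher (40%, against 14.8% of all tested genes) and 3 were not called. Xpc, the damage sensor of nucleotide excision repair, averaged 25.4 ± 2.12 CPM in KO atria and 19.0 ± 1.88 CPM in control atria (SD, n = 4 each, 1.34-fold, edgeR adjusted p = 0.004). Polk, a translesion DNA polymerase, was at 14.98 to 15.17 CPM in the 4 KO libraries and 10.2 to 12.7 CPM in the controls (1.34-fold, adjusted p = 0.00341). Both genes lost their call against controls 1 and 2 alone, with adjusted p = 0.062 for Xpc (0.000205 to 0.062 over all alternatives) and 0.0552 for Polk (8.03e-05 to 0.0552). Ddb2, the partner of Xpc in finding damage, averaged 7.69 ± 1.14 CPM in KO atria and 6.43 ± 0.939 CPM in control atria (SD, n = 4 each, adjusted p = 0.199), and was called higher by limma-voom (0.0432, with 0.0432 to 0.668 over all alternatives). Rrm2b, the p53-inducible subunit of ribonucleotide reductase, and Ercc5, a repair nuclease, had log2 fold changes of -0.14 (SE 0.09, adjusted p = 0.262) and -0.09 (SE 0.08, adjusted p = 0.404).

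Of the 6 genes of metabolism, autophagy, RNA and the ribosome, 1 was higher and 1 was lower (16.7% each), shares close to the 14.8% and 13.1% of all tested genes. Zmat3, an RNA-binding protein that regulates splicing and transcript stability, averaged 21.3 ± 1.64 CPM in KO atria and 15.1 ± 1.19 CPM in control atria (SD, n = 4 each) and rose 1.41-fold (log2 fold change 0.50, SE 0.09, edgeR adjusted p = 0.00106). Tigar (ENSMUSG00000038028, chromosome 6, 127085116 to 127109557), a fructose bisphosphatase that diverts glucose from glycolysis to the pentose phosphate pathway, was at 28.9, 25.7, 24.1 and 21.5 CPM in KO, against 35.9, 37.9, 37.7 and 43.0 CPM in control atria. The groups did not overlap, and Tigar fell 1.54-fold (log2 fold change -0.63, SE 0.09, adjusted p = 0.000364). Its exons overlap Platr31 on the opposite strand by 122 bases.

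Sesn1, a sestrin that restrains mTORC1, averaged 87.1 ± 9.84 CPM in KO atria and 108 ± 19.0 CPM in control atria (SD, n = 4 each, log2 fold change -0.31, SE 0.12, edgeR adjusted p = 0.0763). Against controls 1 and 2 alone it was called lower, with an adjusted p of 0.0383 (0.0159 to 0.223 over all alternatives). Pltp, the phospholipid transfer protein gene, averaged 33.0 ± 5.95 CPM in KO atria and 26.8 ± 1.69 CPM in control atria (SD, n = 4 each, adjusted p = 0.064), with 41.8 CPM in KO 4, and it was called higher without KO 1 (0.0332, with 0.0224 to 0.271 over all alternatives). Dram1, a lysosomal inducer of autophagy, and Rps27l, a ribosomal protein paralog that can share reads with Rps27, had log2 fold changes of 0.06 and 0.08 (adjusted p = 0.763 and 0.509).

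At the median, the 17 genes called higher lay above the control mean in each KO library. The median log2 deviation of these genes from that mean was 0.46 in KO 1, 0.51 in KO 2, 0.59 in KO 3 and 0.60 in KO 4, against -0.05 to 0.01 in the control libraries. These genes were chosen by their call in the same libraries, so the deviations describe them and are not support. KO 1 held the lowest KO level for 7 of the 17 genes and the highest for 4, whereas KO 3 held the lowest for 1 and the highest for 6. Among controls, control 2 was the lowest for 8 of the 17 genes and the highest for 6. Over all tested genes the median deviation was 0.0021 to 0.026 in the KO libraries.

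**Figure D3:**
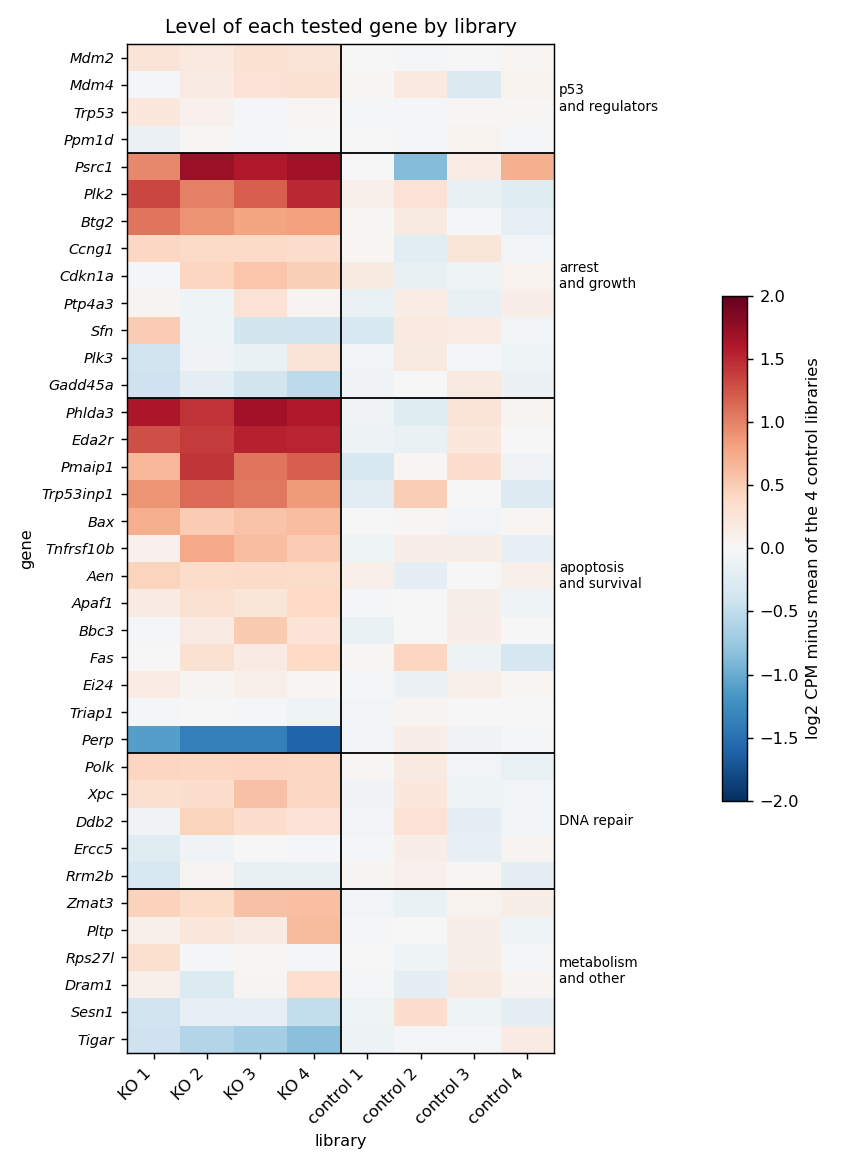
Log2 CPM of each tested gene (rows, by role) in each library (columns, KO left of control) minus the mean of the 4 controls, with red for higher and blue for lower. The rows of Phlda3, Eda2r and Plk2 are red in all 4 KO libraries and that of Perp is blue in all 4, while the Cdkn1a cell of KO 1 is close to the control level.

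Levels were also compared between genes on a scale of CPM per kb of exon, using the merged exons of GENCODE M21, which do not account for which transcripts were present. In control atria Ccng1 stood highest at 146 ± 19.7 CPM per kb, followed by Perp at 85.6 ± 5.73 and Rps27l at 40.7 ± 2.50 CPM per kb (SD, n = 4). Psrc1 and Pmaip1, both among the genes that rose most, were the lowest of the tested genes at 0.382 ± 0.166 and 0.381 ± 0.0798 CPM per kb in control (SD, n = 4). In KO atria the order below Ccng1 (189 ± 2.73 CPM per kb) was Phlda3 (60.8 ± 4.09), Rps27l (43.1 ± 5.24) and Perp (33.6 ± 4.91), each as SD with n = 4. Phlda3 had been at 20.4 ± 2.95 CPM per kb in control (SD, n = 4). Its neighbour in the control order, Ptp4a3 at 20.2 ± 2.30 CPM per kb (SD, n = 4), differed from it by less than the SD of either gene.

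A further 85 genes of the pathway, in 4 lists, were read beside the set. Of 83 tested, 15 were higher (18.1%, against 14.8% of all tested genes) and 6 were lower (7.23%, against 13.1%). The higher count was 9 without KO 2, KO 4 or control 1, beside 11.4% to 11.6% of all tested genes. It was also 9 against controls 3 and 4 alone (beside 9.06%), and 8 without KO 2 and control 2 (beside 11.1%). The lower count was 12 by limma-voom, beside 16.1% of all tested genes. Of 44 tested further targets, 12 were higher (27.3%), 2 lower (4.55%) and 30 not called, with a median log2 fold change of 0.16. Gdf15, a secreted stress cytokine, averaged 4.82 ± 0.702 CPM in KO atria and 1.33 ± 0.24 CPM in control atria (SD, n = 4 each, log2 fold change 1.85, SE 0.18, edgeR adjusted p = 1.97e-05). Bcl2, the survival gene, averaged 19.8 ± 2.09 CPM in KO atria and 11.1 ± 0.65 CPM in control atria (SD, n = 4 each, log2 fold change 0.84, adjusted p = 5.05e-05). Sesn2, a sestrin that also answers the integrated stress response, averaged 12.4 ± 1.72 CPM in KO atria and 6.18 ± 0.71 CPM in control atria (SD, n = 4 each, log2 fold change 1.00, adjusted p = 0.000142). Rprm, Reprimo, a gene of G2 arrest, had a log2 fold change of -2.03, with 0.415 ± 0.0615 CPM in KO against 1.70 ± 0.395 CPM in control atria (SD, n = 4 each, adjusted p = 0.000122).

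Upstream of p53, 1 of 11 DNA damage sensors and kinases was higher and 1 was lower (9.09% each, under the 14.8% and 13.1% of all tested genes), and 9 were not called (median -0.05). Dyrk2, a kinase of p53, fell to 112 ± 2.17 CPM in KO against 168 ± 10.5 CPM in control atria (SD, n = 4 each, log2 fold change -0.58, SE 0.06, edgeR adjusted p = 2.18e-05). Chek2, the checkpoint kinase downstream of Atm, averaged 4.93 ± 0.403 CPM in KO atria and 3.54 ± 0.458 CPM in control atria (SD, n = 4 each, log2 fold change 0.48, adjusted p = 0.0252). The call ended when KO 2, KO 4, control 1 or control 4 was left out singly (0.0572 to 0.079) and against controls 3 and 4 alone (0.201, with 0.00703 to 0.201 over all alternatives). Hipk2, another p53 kinase, and Atm were not called, with log2 fold changes of -0.21 (adjusted p = 0.122) and -0.23 (adjusted p = 0.157). Hipk2 was called lower without KO 4 (0.0262) and with the replicate number as a block (0.0496), with 0.0262 to 0.313 over all alternatives.

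Of 14 tested family members, ligases and cofactors, 3 were lower by edgeR (21.4%, against 13.1% of all tested genes) and the other 11 were not called (median -0.10). Ppp1r13l, which encodes iASPP, an inhibitor of p53, fell by 0.50 on the log2 scale (45.3 ± 3.54 CPM in KO atria and 64.2 ± 3.83 CPM in control atria, adjusted p = 0.000218). Trp53bp2, which encodes ASPP2, a helper of p53 at apoptotic promoters, fell by 0.33 (45.9 ± 4.52 CPM in KO atria and 57.7 ± 4.61 CPM in control atria, adjusted p = 0.00986), and Usp10, a deubiquitinase of p53, fell by 0.24 (38.6 ± 1.92 CPM in KO atria and 45.6 ± 2.54 CPM in control atria, adjusted p = 0.0123; SD, n = 4 each for these 3). With libraries scaled by totals alone, Trp53bp2 (0.0606, with 0.00111 to 0.0606 over all alternatives) and Usp10 (0.0658, with 0.00264 to 0.0695) were not called. The ligase gene Cop1 had a log2 fold change of -0.15 (adjusted p = 0.0548), and was called lower without KO 1 (0.0207) or control 2 (0.0473), with 0.0196 to 0.318 over all alternatives. Trp73, a p53 relative, was not tested, at 0.0545 to 0.324 CPM in KO atria and 0.182 to 0.252 CPM in control atria.

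The last list held 14 genes of mitosis and DNA replication that p53 is known to lower through p21 and the DREAM complex. By edgeR, 2 of 14 were higher (14.3%, close to the 14.8% of all tested genes) and the other 12 were not called. The median log2 fold change was 0.56, and all 14 values lay above 0, as did 9242 of the 18033 tested genes. Plk1, the mitotic kinase, averaged 3.02 ± 0.662 CPM in KO atria and 1.93 ± 0.23 CPM in control atria (SD, n = 4 each, log2 fold change 0.64, adjusted p = 0.0296), which ceased to be called when KO 1, KO 2, KO 3, control 1, control 2 or control 3 was left out singly (0.0536 to 0.0897, with 0.0106 to 0.189 over all alternatives). Mybl2, a cell cycle transcription factor, averaged 1.43 ± 0.32 CPM in KO atria and 0.842 ± 0.208 CPM in control atria (SD, n = 4 each, log2 fold change 0.77, adjusted p = 0.0416). It ceased to be called when KO 1, KO 2, KO 4, control 1, control 2 or control 3 was left out singly (0.0504 to 0.135). Of all 20 alternatives 11 did not call Mybl2 (0.0273 to 0.274 over all of them). E2f1 and Aurkb were at 0.60 (adjusted p = 0.0673) and 0.72 (adjusted p = 0.0691) on the log2 scale. Without control 3 both were called higher, E2f1 with an adjusted p of 0.0244 (0.0244 to 0.326 over all alternatives, 4 of which called it) and Aurkb with 0.00942 (0.00807 to 0.44, with 6 calls). The summed level of the 14 genes was 71.9 to 96.3 CPM in KO atria and 36.8 to 87.1 CPM in control atria, so the groups overlapped.

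**Figure D4:**
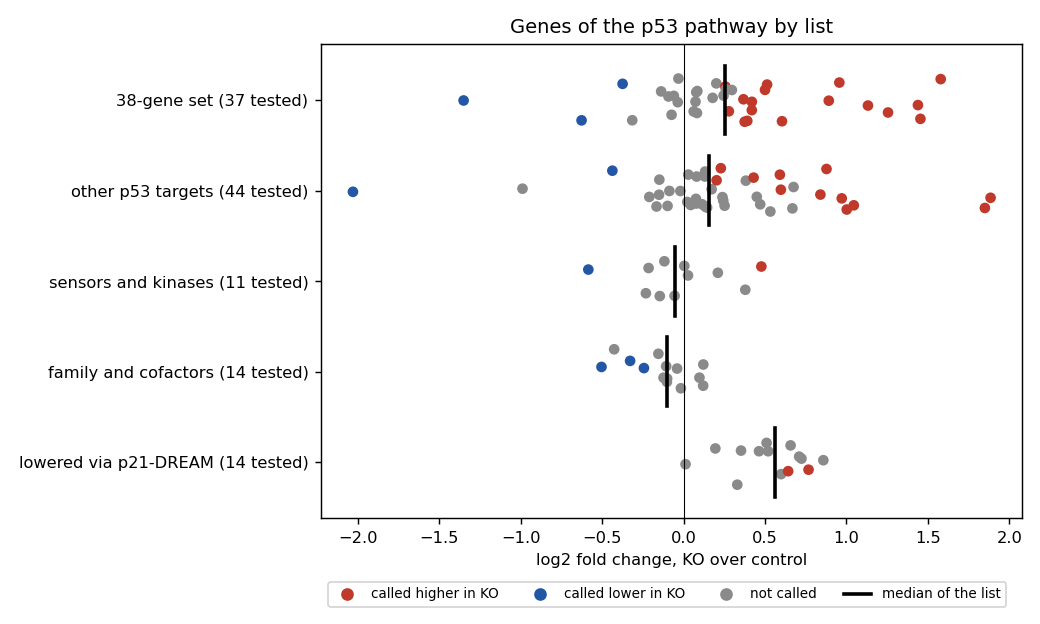
Log2 fold change of KO over control (horizontal axis) for each tested gene of the 38-gene set and of the 4 further lists (rows, with a random vertical offset), with a black bar at the median of the list. The medians lie at 0.26, 0.16, -0.05, -0.10 and 0.56 from top to bottom, and the called genes of the cofactor list all lie below 0.

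Cell type markers were read beside these genes, against the 14.8% of all tested genes that were higher and the 13.1% that were lower. Of 10 cardiomyocyte markers 8 were lower (80%) and 1 was higher (10%). In bulk atria, fewer cells of a type and less RNA per cell cannot be told apart. Of 8 genes in each list, 5 fibroblast (62.5%), 6 epicardial (75%), 4 endothelial (50%), 4 macrophage (50%) and 2 lymphocyte markers (25%) were higher, and 1 endothelial marker was lower (12.5%). Smooth muscle and pericyte markers were called in both directions, 4 higher (50%) and 2 lower (25%) of 8. Summed lymphocyte markers were at 34.9 to 67.1 CPM in KO atria and 9.26 to 33.1 CPM in control atria, and did not overlap. Summed fibroblast markers were at 7257 to 9533 CPM in KO atria and 6265 to 6991 CPM in control atria, macrophage markers at 311.7 to 418 CPM in KO atria and 278 to 328 CPM in control atria, epicardial markers at 698 to 865 CPM in KO atria and 523 to 679 CPM in control atria, and endothelial markers at 1256 to 1437 CPM in KO atria and 1140 to 1242 CPM in control atria. Smooth muscle and pericyte markers summed to 446 to 591 CPM in KO atria and 502 to 792 CPM in control atria. The part of these cell types in the changes of the p53 pathway genes was not tested.

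Btg2, Plk2 and Plk3 also belong to the genes that respond within minutes to serum and stress, so a list of 12 immediate early genes was read beside them. Of these 12, 5 were higher (41.7%, against 14.8% of all tested genes) and 1 was lower (8.33%, against 13.1%), with a median log2 fold change of 0.35. Their summed level was 381 to 489 CPM in KO atria and 330.0 to 402 CPM in control atria. The part of this response in the levels of Btg2 and Plk2 was not tested.

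The number of p53 pathway genes called higher ran from 12 to 19 of 37 over the alternatives with this number of tested genes, and was 17 of 38 without a filter on low counts. It was lowest against controls 1 and 2 alone, at 12 (32.4%, beside 9.81% of all tested genes), and 13 against controls 3 and 4 alone (35.1%, beside 9.06%). Without KO 2 and control 2 it was 14 (37.8%, beside 11.1%). Controls 1 and 2 were the controls low in Y-linked expression (1.61 and 1.79 CPM, against 235 and 219 CPM in controls 3 and 4). KO 2 was the only such KO library (1.64 CPM), so the fits against controls 1 and 2 or 3 and 4 alone also differ in Y-linked expression. Of the 17 genes, 11 were called higher under all 20 alternatives: Mdm2, Btg2, Plk2, Psrc1, Bax, Pmaip1, Aen, Trp53inp1, Phlda3, Eda2r and Zmat3. Of the 3 lower genes, Perp and Tigar were called lower under all 20.

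**Figure D5:**
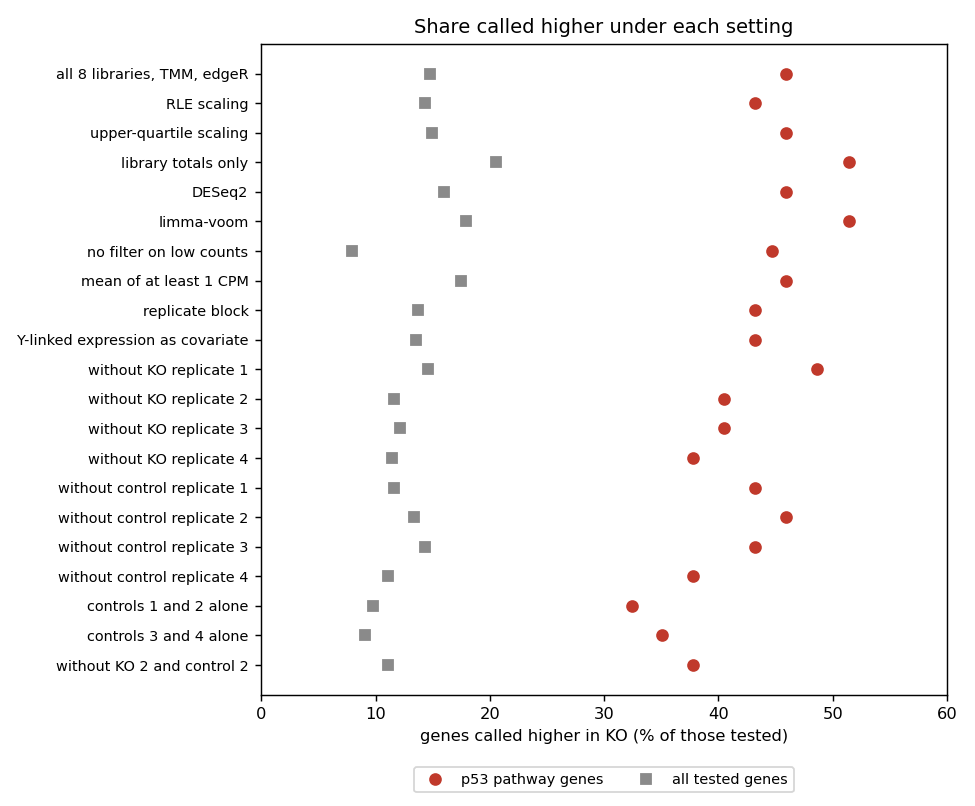
Percent of tested genes called higher in KO (horizontal axis) under the settings used here and 20 alternatives (rows), for the p53 pathway genes (red circles) and all tested genes (grey squares). The pathway genes lie at 32.4% to 51.4% and all tested genes at 7.95% to 20.5%.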

How the data were processed

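Messenger RNA of 4 KO and 4 control atrial libraries was measured after oligo-dT selection, per the labels' protocols. The authors deposited raw counts of reads for each gene, 1 column a library, and the submitters' processing notes name STAR, DESeq2 and the build mm10 without versions. The sources used here do not give the counting step or its strand setting. Each column was tied to its sample by the vector and number in its name. Of 54532 identifiers 54495 were in GENCODE M21 (GRCm38, the assembly of mm10), the source of coordinates and exon lengths, and all 38 pathway genes matched.

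Counts were tested with edgeR 4.0.16 (R 4.3.3): filterByExpr (minimum count 10, minimum total 15), TMM factors and the robust quasi-likelihood test without covariates on 6 residual degrees of freedom, with Benjamini-Hochberg adjustment over 18033 genes and calls at 0.05. DESeq2 1.42.0, limma 3.58.1 (voom with quality weights), other scalings and filters, the replicate number as a block, Y-linked expression as a covariate, controls 1 and 2 or 3 and 4 alone and the leaving out of libraries were alternatives. No library was a copy of another: chi-square over its degrees of freedom was 11.2 to 28.2 for pairs of the same group.

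The genes and lists were chosen with earlier results of these data known. Values in every library are given for Chd4, Trp53, Mdm2, Mdm4, Cdkn1a, Ccng1 and Cdkn2a and for genes of the set called with at least a 1.5-fold change. Of each further pathway list the 4 tested genes with the smallest p are named.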

Additional observations from a re-analysis of the deposited data

Results flagged for a closer look

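Of 110 groups of 4 libraries examined, 6 held a library whose gap to the nearest other exceeded Dixon's 95% critical value, as a share of the group's range, and chance flags about 1 group in 20. Control 2 was the highest control for Sesn1 (136.6 CPM, the others at 95.1 to 101 CPM), for Xpc (21.78 CPM, the others at 17.8 to 18.2 CPM) and for Plk3 (5.269 CPM, the others at 4.41 to 4.52 CPM). It was the lowest control for Dyrk2 (152.0 CPM, the others at 171 to 174 CPM). Control 1 was the lowest control for Sesn2 (5.123 CPM, the others at 6.43 to 6.61 CPM). KO 1 was the highest KO library for Rps27l (41.53 CPM, the others at 32.7 to 33.8 CPM).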

How the results depend on the processing

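Each value was recomputed under 20 alternatives, of which the fit without KO 2 and control 2 was chosen after seeing the data. Over the leaving out of single libraries, p53 pathway genes called higher ran from 14 to 18 and lower from 2 to 3, other pathway genes higher from 9 to 19 and lower from 6 to 9, all genes higher from 2032 to 2687 and lower from 1877 to 2614, and the median of the set from 0.23 to 0.31. Other pathway genes called higher numbered 9 against controls 3 and 4 alone (beside 9.06% of all tested genes) and 8 without KO 2 and control 2 (beside 11.1%). Those called lower numbered 12 by limma-voom (beside 16.1%). All genes called higher numbered 1700 against controls 3 and 4 alone; the cause was not tested. Correlations of deviations between same-numbered libraries were -0.0153, 0.303, -0.0563 and 0.105, and those between differently numbered ones ran from -0.225 to 0.173. The same-numbered values differ from pair to pair, so they cannot decide whether the numbers pair the libraries. With the replicate block, 16 of the 37 were higher and 3 lower, calls of Cdkn1a, Gadd45a, Plk1 and Mybl2 were lost, and Sesn1 and Hipk2 were called lower. Genes not called changed sign as follows, each with the cause not tested. With library totals Ppm1d was at 0.0502, Plk3 at 0.00763, Sfn at 0.016 and Triap1 at 0.045. Without KO 1 Plk3 was at 0.018 and Rps27l at -0.0103, without KO 3 Sfn at 0.036, without KO 4 Sfn at 0.046 and Dram1 at -0.04015, and without control 2 Sfn at 0.0099. Over single libraries left out, Plk3 ran from -0.199 to 0.018, Sfn from -0.305 to 0.046, Dram1 from -0.04015 to 0.161 and Rps27l from -0.0103 to 0.122. With the Y-linked covariate Dram1 was at -0.026, against controls 1 and 2 alone Fas at -0.0301, against controls 3 and 4 alone Ei24 at -0.0067 and Dram1 at -0.068, and without KO 2 and control 2 Sfn at 0.028. Depth limits Cdkn2a, whose 22 KO and 6 control reads fell below the filter.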
